A study of Homo sapiens with 6 samples.

Results

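The dual-specificity phosphatases of the MAP kinases are described here in NCI-H1299 cells, a widely used cell line from a human non-small cell lung carcinoma, with and without norepinephrine (NE). The 10 genes DUSP1, DUSP2, DUSP4, DUSP5, DUSP6, DUSP7, DUSP8, DUSP10, DUSP14 and DUSP16 were taken by name from a table of 26025 genes, and all 10 were found in it and passed the filter on low values. RNA was sequenced from 3 Ctrl and 3 NE libraries. NE was given at 10 µM for 48 h in medium with 2% serum, after the cells had been starved for 8 to 12 h. Ctrl cells went through the same starvation and serum steps with vehicle, which the labels name both as DMSO and as PBS. All 6 libraries come from 1 cell line without an introduced genetic change, so that they model 1 tumor, and no source says whether the replicates were separate cultures. The p-values therefore measure the spread between these libraries, which may be technical.

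A MAP kinase is switched on when a kinase above it phosphorylates a threonine and a tyrosine in its activation loop. Dual-specificity phosphatases take both phosphates off and so switch it off again. Many of them are themselves transcribed when the pathway is active, which closes a negative feedback loop. DUSP1, DUSP2, DUSP4 and DUSP5 are nuclear and inducible, DUSP6 and DUSP7 are cytoplasmic and act on ERK, and DUSP8, DUSP10 and DUSP16 act mainly on the stress kinases JNK and p38. DUSP14 is a small atypical member that lacks the N-terminal domain by which the others bind kinases. NE raises cAMP through beta-adrenergic receptors, and the cAMP-dependent kinase PKA phosphorylates CREB, a transcription factor that binds the DNA element TGACGTCA, called the CRE.

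The 250 bases before the transcription start of 3 genes are shown because they differ in this element. The genes were picked with their values known: DUSP1 rose, DUSP6 fell, and a change of DUSP8 was not detectable. The sequences are from RefSeq on GRCh38.p14, written 5′ to 3′ on the strand of the gene, with every TGACG, the core of the CRE, and its complement CGTCA in capitals. They lie at chr5:172771196-172771445 for DUSP1, chr12:89352502-89352751 for DUSP6 and chr11:1572272-1572521 for DUSP8, all on the minus strand.
DUSP1: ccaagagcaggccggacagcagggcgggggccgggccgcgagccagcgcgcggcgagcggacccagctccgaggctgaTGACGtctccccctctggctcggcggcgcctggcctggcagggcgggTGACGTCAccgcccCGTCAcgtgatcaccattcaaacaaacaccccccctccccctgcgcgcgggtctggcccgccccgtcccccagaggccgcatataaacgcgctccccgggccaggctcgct
DUSP6: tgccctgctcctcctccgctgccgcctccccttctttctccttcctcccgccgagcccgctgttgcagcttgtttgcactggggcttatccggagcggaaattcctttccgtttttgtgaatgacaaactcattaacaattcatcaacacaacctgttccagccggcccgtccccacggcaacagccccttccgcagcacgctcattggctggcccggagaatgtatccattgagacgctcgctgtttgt
DUSP8: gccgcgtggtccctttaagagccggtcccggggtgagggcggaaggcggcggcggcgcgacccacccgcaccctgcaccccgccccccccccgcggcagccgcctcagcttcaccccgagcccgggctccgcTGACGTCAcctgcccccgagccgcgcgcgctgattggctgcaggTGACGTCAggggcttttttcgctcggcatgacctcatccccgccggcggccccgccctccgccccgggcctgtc
The DUSP1 sequence held 1 full TGACGTCA, beginning 125 bases before the start, and 4 matches to TGACG on either strand, of which 2 lie within the full element, one on each strand. DUSP8 held 2 full elements, which account for all 4 of its TGACG matches. No TGACG was found in the window of DUSP6. RefSeq sequences were matched for 8 of the 10 genes, with 9 starts in all because DUSP10 has 2, and DUSP4 and DUSP5 had no entry. The windows of DUSP2, DUSP7, DUSP10, DUSP14 and DUSP16 also held no TGACG. The AP-1 element TGANTCA was found in none of the 9 windows. Over 35116 windows of the same length, 1.65% held TGACGTCA, 21.2% TGACG and 6.57% TGANTCA, on either strand. These matches describe letters in a window and not bound sites. As given below, DUSP1 rose with NE, while DUSP8, with the larger number of full elements, had 8.72 to 15.8 normalized counts in 5 libraries and 48.0 in Ctrl replicate 3.

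The authors divided the count of every gene in a library by the same size factor, and these normalized counts gave whole reads back for 100% of values within 0.1 of a read. The recovered reads on genes were between 16852751 and 17979206 per library. One Ctrl library stood apart: Ctrl replicate 3 had 7305 genes at 0, against 3954 to 4833 in the other 5 libraries. The NE response also followed GC content, with a Spearman correlation of -0.64 between the log2 difference and the exon GC content across 14955 genes, which are not independent. The same correlation was -0.51 for Ctrl replicate 3 against the mean of the other Ctrl libraries. For this reason the values without Ctrl replicate 3 and after removal of each library's GC trend are given beside the results they change. Epithelial KRT8 and KRT18 and mesenchymal VIM were high, with 100.2, 405.7 and 717.1 FPKM in Ctrl. Mesenchymal CDH2 was present at a much lower level, 6.87 FPKM in Ctrl. FPKM is the recovered reads scaled to merged exon length and to the reads of the library. The log2 fold changes with NE were -1.06 for KRT8, -1.62 for KRT18, -0.38 for VIM and 0.64 for CDH2, without the GC correction. Of 5 leukocyte markers 3 were listed, with a summed level of 0 to 6.28 normalized counts in Ctrl and 1.98 to 4.84 in NE. The 3 fibroblast markers summed to 0 to 21.8 in Ctrl and 8.22 to 20.8 in NE, and the 3 endothelial markers to 36.7 to 52.9 and 22.3 to 51.4. Of 3 alveolar and 2 squamous markers 1 each was listed, and neither exceeded 4.94 normalized counts. In bulk RNA, fewer cells of a type and less RNA per cell cannot be told apart.

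With NE, members of the family moved in both directions. DUSP1 and DUSP4 rose, while DUSP2, DUSP5, DUSP6 and DUSP7 fell. The JNK and p38 phosphatases DUSP8, DUSP10 and DUSP16 were not called in either direction. A call needed an adjusted p under 0.05 from limma with Benjamini-Hochberg adjustment over the 15013 genes tested and a log2 fold change of at least 1 in size, on the log2(value + 1) scale, which understates the change of low genes. Upregulated were 2 of the 10 members, against 7.47% of all tested genes, and downregulated were 4, against 6.55%. Every NE library lay above every Ctrl library for 2 members and below for 5, where 29.7% and 28.9% of all tested genes did so. The median log2 fold change was -0.73 for the members and 0.01 for all tested genes, both without the GC correction. That correction made the changes of DUSP2, DUSP5, DUSP7, DUSP8, DUSP14 and DUSP16 smaller in size. It made those of DUSP1, DUSP4, DUSP6 and DUSP10 larger.

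With the adjusted p alone, 7 of the 10 members passed, against 50.1% of all tested genes. After the GC correction 2 members rose and 2 fell, DUSP1 and DUSP4 against DUSP2 and DUSP6, where 3.67% and 2.31% of 14955 genes did so.

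**Figure D1:**
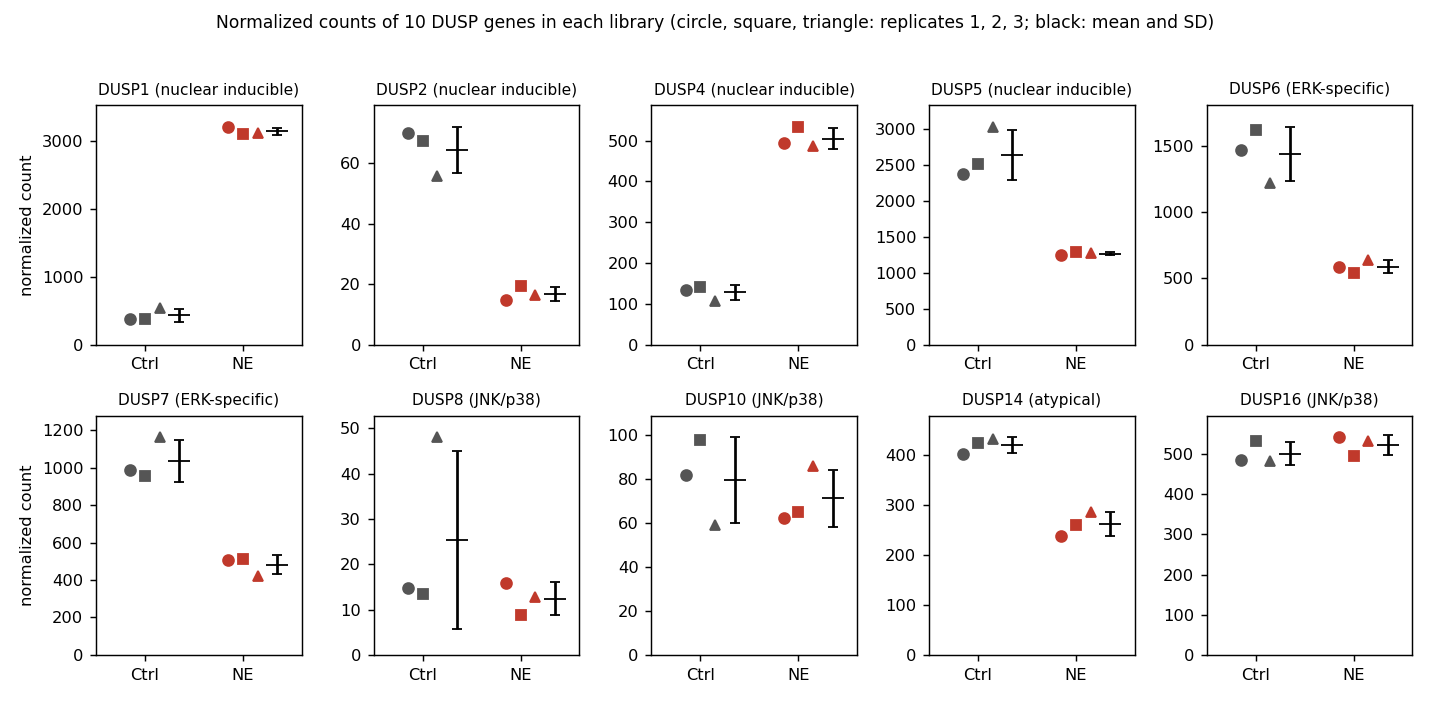
Normalized counts (vertical axes, linear and starting at 0) of the 10 genes in the 3 Ctrl and 3 NE libraries, with the mean and SD of each group in black. Each NE library is above all Ctrl libraries for DUSP1 and DUSP4 and below all of them for DUSP2, DUSP5, DUSP6, DUSP7 and DUSP14, and the groups overlap for DUSP8, DUSP10 and DUSP16.

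DUSP1 (ENSG00000120129) encodes the first known phosphatase of this family, an immediate-early gene product that acts in the nucleus on p38, JNK and ERK. Its normalized counts were 383.3, 372.3 and 539.0 in the Ctrl libraries and 3209, 3100 and 3121 in the NE libraries. The groups were far apart, and the highest Ctrl library was Ctrl replicate 3. The mean rose from 431.5 ± 93.2 (SD, n = 3) to 3143 ± 57.4 (SD, n = 3), 7.28-fold. The log2 fold change was 2.88 with a standard error of 0.148 (limma, adjusted p = 5.24e-06). It was 3.05 without Ctrl replicate 3 and 3.33 after the GC correction, and DUSP1 was called in all 19 alternative fits.

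In hg38 the gene spans chr5:172768096-172771195 on the minus strand, and its window of promoter sequence with the CRE is the first of the 3 shown above. An overlapping RNA gene on the other strand, ENSG00000253736, shares no exon bases with it and had 2.07 to 6.28 normalized counts. The 5 genes TGFA, SH3BGRL2, PPP1R3C, HERC4 and BDNF followed DUSP1 most closely over the 6 libraries by Pearson correlation of the log2 values. Their correlations ran from 0.99891 (BDNF) to 0.99979 (TGFA), and their own log2 fold changes from 1.22 (SH3BGRL2) to 3.56 (PPP1R3C). The points form 2 groups, so that any gene with a large and even NE difference scores high, and 217 of the 15013 tested genes reached 0.99.

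DUSP4, a nuclear phosphatase close to DUSP1 that acts on ERK and JNK, was the other member that rose. It had 135.1, 141.0 and 107.8 normalized counts in Ctrl libraries and 494.1, 533.7 and 487.0 in the NE libraries. Here Ctrl replicate 3 was the lowest library, opposite to its place in DUSP1. The mean went from 128.0 ± 17.7 (SD, n = 3) to 504.9 ± 25.1 (SD, n = 3), 3.95-fold, with a log2 fold change of 1.98 and a standard error of 0.151 (limma, adjusted p = 4.70e-05). Without Ctrl replicate 3 the log2 fold change was 1.86, and after the GC correction it was 2.29. The log2 ratio of DUSP1 to DUSP4 was 1.73 ± 0.50 (SD, n = 3) in Ctrl against 2.64 ± 0.09 (SD, n = 3) in NE.

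The remaining nuclear members moved the other way. DUSP2, best known from activated lymphocytes and encoded at chr2:96143169-96145440 on the minus strand, was low in these cells, with 70.2, 67.4 and 55.9 normalized counts in Ctrl and 14.8, 19.4 and 16.4 in NE libraries. All NE libraries were below all Ctrl libraries. The mean fell from 64.5 ± 7.59 (SD, n = 3) to 16.9 ± 2.30 (SD, n = 3), so that Ctrl was 3.82-fold higher, with a log2 fold change of -1.87 and a standard error of 0.277 (limma, adjusted p = 0.000731). DUSP2 exons are rich in GC, at 63.6%, and the GC correction brought the change to -1.22 (limma, adjusted p = 0.00505), still past the threshold. Without Ctrl replicate 3 the log2 fold change was -1.97.

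DUSP5, a nuclear phosphatase that takes only ERK as its substrate, is encoded at chr10:110497907-110511533 on the plus strand and was the most abundant member in Ctrl. It had 2381, 2507 and 3029 normalized counts in Ctrl libraries and 1241, 1288 and 1269 in the NE libraries. The NE libraries lay close together, far under the lowest Ctrl library. The mean fell from 2639 ± 343.3 (SD, n = 3) to 1266 ± 23.7 (SD, n = 3), a log2 fold change of -1.05 with a standard error of 0.115 (limma, adjusted p = 0.00021). This is close to the fold limit. Without Ctrl replicate 3, in which DUSP5 was highest, it was -0.95 (limma, adjusted p = 6.63e-07), and after the GC correction -0.60 (adjusted p = 0.0103), both with a p under 0.05 but short of the fold criterion. The log2 ratio of DUSP1 to DUSP5 was -2.62 ± 0.13 (SD, n = 3) in Ctrl against 1.31 ± 0.05 (SD, n = 3) in NE libraries, so that their order was turned around.

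Both ERK phosphatases of the cytoplasm fell. DUSP6 is a classical readout and feedback inhibitor of ERK activity, and its gene spans chr12:89347235-89352501 on the minus strand. It had 1470, 1621 and 1215 normalized counts in Ctrl libraries and 584.0, 542.4 and 636.0 in the NE libraries. The lowest Ctrl library, Ctrl replicate 3, was still well above all NE libraries. The mean fell from 1435 ± 205.1 (SD, n = 3) to 587.5 ± 46.9 (SD, n = 3), which made Ctrl 2.44-fold higher, with a log2 fold change of -1.28 and a standard error of 0.135 (limma, adjusted p = 0.000177). Of the 4 members that fell, DUSP6 changed least on GC correction, to -1.34 (limma, adjusted p = 6.65e-05), and it was called in all 19 alternative fits. An RNA gene on the opposite strand, ENSG00000274021, shares 1105 exon bases with DUSP6 and had 0 to 14.7 normalized counts. No source states that strand was used in counting.

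DUSP7, which like DUSP6 acts on ERK and is encoded at chr3:52048919-52056571 on the minus strand, stood at 989.6, 957.1 and 1163 normalized counts in Ctrl. The NE libraries had 506.9, 515.3 and 423.1, all below the Ctrl range. The log2 fold change was -1.10 with a standard error of 0.132 (limma, adjusted p = 0.000292), from a mean of 1037 ± 110.8 (SD, n = 3) to 481.8 ± 51.0 (SD, n = 3). The change of DUSP7 was smaller after the GC correction. Its exons hold 59.0% GC, and the corrected log2 fold change was -0.53 (limma, adjusted p = 0.0323, and 0.0773 with the replicate number as a block), short of the fold criterion. Without Ctrl replicate 3 it was -1.02. The log2 ratio of DUSP6 to DUSP7 was 0.46 ± 0.36 (SD, n = 3) in Ctrl against 0.29 ± 0.27 (SD, n = 3) in NE, and the difference did not pass an exact two-sided permutation test (p = 0.7). This difference of -0.18 was -0.38 without Ctrl replicate 3, -0.03 without Ctrl replicate 2 and -0.80 after the GC correction, with an exact p of at least 0.2 in each.

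**Figure D2:**
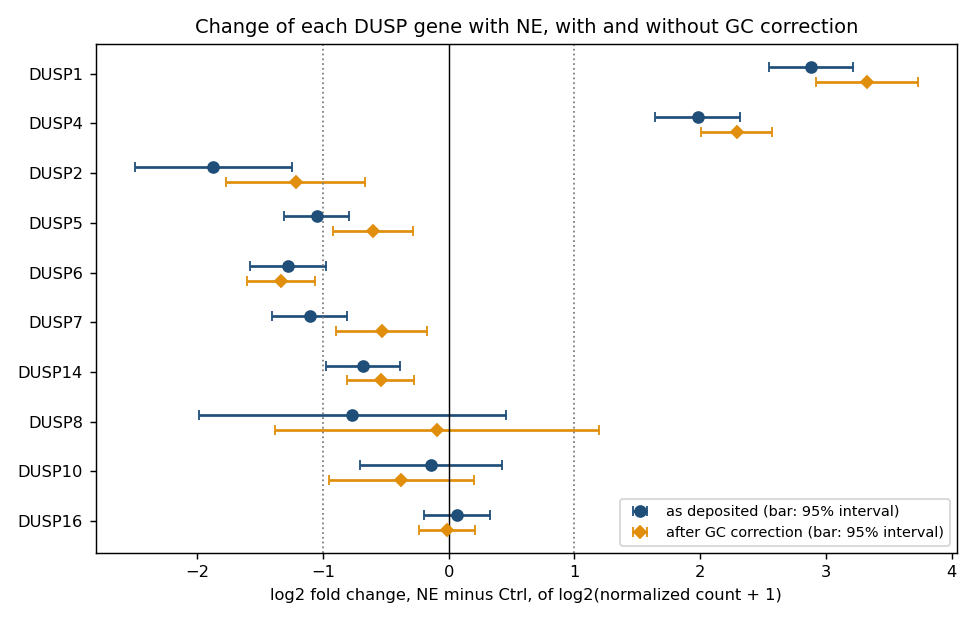
Log2 fold change (horizontal axis, NE minus Ctrl) of each gene as deposited and after removal of each library's GC trend, with 95% intervals from limma. Dotted lines mark the fold criterion of 1 in each direction. DUSP1, DUSP4, DUSP2 and DUSP6 stay past it in both fits, while DUSP5 and DUSP7 move to -0.60 and -0.53.

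None of DUSP8, DUSP10 and DUSP16, the JNK/p38 group, was called. DUSP1 and DUSP4, which also act on JNK, are counted with the nuclear members and rose. DUSP16, a cytoplasmic regulator of JNK, had 483.8, 533.0 and 483.1 normalized counts in Ctrl libraries and 541.5, 493.9 and 532.7 in the NE libraries. The groups overlapped and the spread was small, with a log2 fold change of 0.06 (95% interval -0.20 to 0.33, adjusted p = 0.665 from limma). This interval does not reach the fold criterion in either direction. DUSP10, which acts on p38 and JNK, had 81.7, 97.5 and 58.8 normalized counts in Ctrl and 62.3, 64.9 and 85.9 in NE libraries. Its log2 fold change was -0.14 (95% interval -0.71 to 0.42, adjusted p = 0.658 from limma).

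DUSP8 was near the limit of what this depth can show. It had 14.7, 13.5 and 48.0 normalized counts in Ctrl libraries and 15.8, 8.72 and 12.8 in the NE libraries. The one high value was in Ctrl replicate 3. The log2 fold change was -0.77 (95% interval -1.99 to 0.45, adjusted p = 0.264 from limma), and -0.20 without that library, so a change of DUSP8 was not detectable here. The pseudogene DUSP8P5 is listed at 17.6 to 38.5 normalized counts and was above DUSP8 in 5 of the 6 libraries, all but Ctrl replicate 3. Whether reads were shared between them was not tested. The DUSP5 pseudogenes DUSP5P1 and DUSP5P2 had at most 34.6 and 1.05 normalized counts.

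DUSP14, the atypical member, was lower in NE with a fold short of the criterion. Its normalized counts were 403.2, 425.2 and 433.1 in Ctrl and 239.1, 260.5 and 286.9 in NE libraries. The groups did not overlap. The log2 fold change was -0.68 with a standard error of 0.13 (limma, adjusted p = 0.00245), and -0.54 after the GC correction. With the adjusted p alone, 5 members were lower and 2 higher, against 25.5% and 24.6% of all tested genes.

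**Figure D3:**
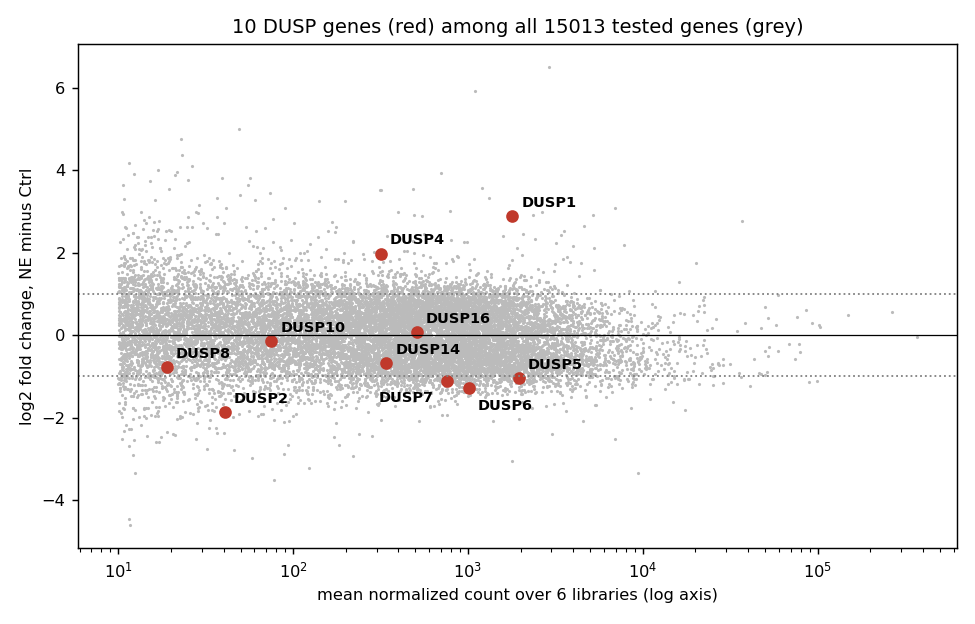
Log2 fold change (vertical axis, NE minus Ctrl) against the mean normalized count over the 6 libraries (horizontal log axis) for all 15013 tested genes in grey and the 10 DUSP genes in red. DUSP1, at 2.88, is the highest of the 10, and DUSP5, DUSP6 and DUSP7 lie together just under the lower dotted line at -1.

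Levels of different genes were compared per length, as FPKM on merged exons. In Ctrl, DUSP5 was highest at 57.9 ± 8.69 FPKM (SD, n = 3), followed by DUSP6 at 20.6 ± 2.60 (SD, n = 3). DUSP1, DUSP7 and DUSP14 came next at 11.9, 10.2 and 9.58 FPKM, and the ranges of neighbours in this trio overlapped. DUSP16 followed at 3.89 FPKM, then DUSP2 at 1.85 and DUSP10 at 1.55, whose ranges overlapped, DUSP4 at 0.975 and DUSP8 at 0.287 FPKM.

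With NE the order began with DUSP1, at 95.3 ± 2.86 FPKM (SD, n = 3), and DUSP5 came second at 30.5 ± 1.70 (SD, n = 3). DUSP6 and DUSP14 were at 9.31 and 6.58 FPKM. DUSP7, DUSP16 and DUSP4 were at 5.18, 4.48 and 4.24 FPKM, and neighbours among them overlapped. DUSP10 stayed at 1.54 FPKM, above DUSP2 at 0.535 and DUSP8 at 0.153. DUSP4 thus moved from ninth to seventh place and DUSP2 from seventh to ninth.

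The FPKM of the 10 genes summed to 110.2, 115.4 and 130.7 in the Ctrl libraries and to 151.8, 157.1 and 164.7 in the NE libraries. The groups did not overlap (p = 0.1 in a two-sided exact permutation test, which with 3 libraries a group can give no smaller p). DUSP1 alone made up 9.97% ± 1.48 (SD, n = 3) of the sum in Ctrl and 60.4% ± 0.80 (SD, n = 3) in NE. DUSP5 went from 48.6% ± 2.87 (SD, n = 3) to 19.3% ± 0.49 (SD, n = 3). The ERK-specific pair DUSP6 and DUSP7 went from 26.1% ± 3.04 (SD, n = 3) to 9.18% ± 0.13 (SD, n = 3), and the JNK/p38 group from 4.85% ± 0.54 (SD, n = 3) to 3.90% ± 0.24 (SD, n = 3). The shares also move with the sum: the FPKM of the JNK/p38 group itself went from 5.73 ± 0.36 (SD, n = 3) to 6.17 ± 0.59 (SD, n = 3) with NE (exact permutation test, p = 0.4), while that of the ERK-specific pair went from 30.8 ± 1.41 (SD, n = 3) to 14.5 ± 0.64 (SD, n = 3). These shares are of RNA and rest on the exon lengths of GENCODE v44.

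**Figure D4:**
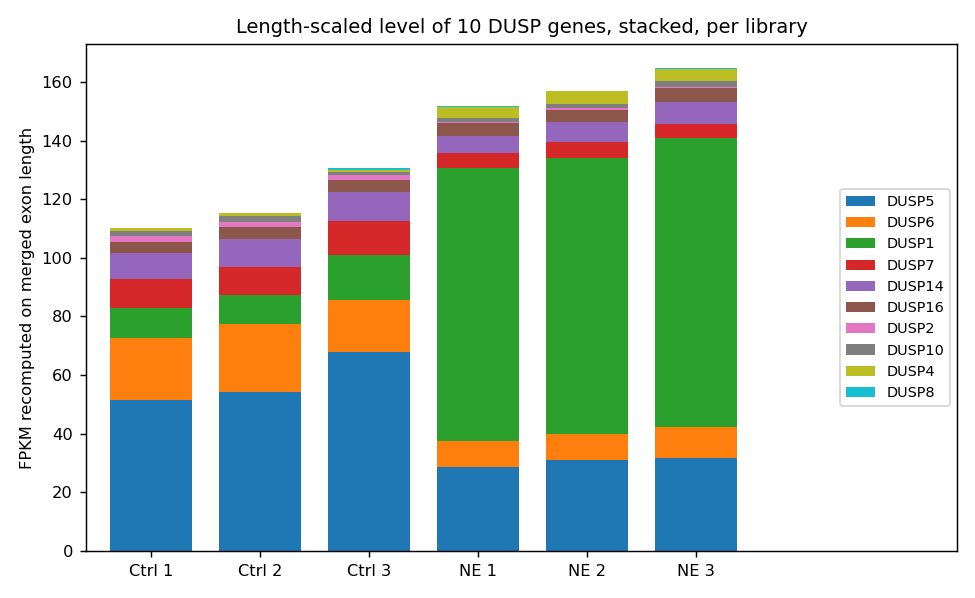
Stacked FPKM (vertical axis, recomputed from recovered reads on merged exon length) of the 10 DUSP genes in each of the 6 libraries. DUSP5 is the largest block in the Ctrl libraries, and DUSP1, at about 60.4% of the sum, is the largest in the NE libraries.

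Of 10 pairs of members compared by their log2 ratio in each library, 6 gave the smallest p that the exact two-sided permutation test allows, 0.1, with an adjusted p of 0.167. These were DUSP1 against DUSP2, DUSP4, DUSP5, DUSP6 and DUSP10, and DUSP4 against DUSP5. For DUSP1 against DUSP2 the log2 ratio was 2.71 ± 0.47 (SD, n = 3) in Ctrl against 7.47 ± 0.21 (SD, n = 3) in NE, a difference of 4.76, and 4.55 after the GC correction. For DUSP1 against DUSP6 the difference was 4.16, and 4.66 after the correction. A design of 3 against 3 cannot pass 0.05 in this test. The pairs among DUSP8, DUSP10 and DUSP16 had exact p from 0.2 to 0.7.

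The rest of the MAPK pathway is given by 9 lists of genes. Their counts stand beside the 7.47% of all tested genes called up and 6.55% called down, or 24.6% and 25.5% with the adjusted p alone. Of 10 MAP kinases 1 was downregulated and 0 upregulated by limma: MAPK12, a p38 kinase, went from 663.3 ± 87.3 (SD, n = 3) to 328.6 ± 30.0 (SD, n = 3) normalized counts, with a log2 fold change of -1.01 at the fold limit and -0.33 after the GC correction. With the adjusted p alone, 3 of them were higher and 4 lower. The median log2 fold change of the list was 0.21, and -0.10 after the GC correction. Of 6 tested MAP kinase kinases 1 was downregulated, MAP2K3, which activates p38, at -1.16, and -0.59 after the GC correction.

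Further up, 2 of 9 RAS and RAF genes were downregulated, the small GTPases HRAS and RRAS, at -1.14 and -1.34. Among 17 kinases that start the JNK and p38 arms, 2 were upregulated, MAP3K2 at 1.12 and TAOK1 at 1.25. After the GC correction these 4 genes were at -0.47, -0.68, 0.46 and 0.76, all short of the fold criterion. Of 11 kinases that MAP kinases activate, RPS6KA4 and MAPKAPK3 were downregulated, at -1.43 and -1.37, and at -0.77 and -0.82 after the correction. RPS6KA4 is a nuclear kinase downstream of ERK and p38, and MAPKAPK3 is a target of p38.

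Genes transcribed downstream of ERK had calls in both directions. Of 14 tested ERK output genes, 5 were downregulated and 1 upregulated by limma, where 6.55% and 7.47% of all tested genes were. FOSL1, an AP-1 subunit, had 14279, 14260 and 7290 normalized counts in Ctrl libraries and 1703, 2242 and 2049 in the NE libraries, with a log2 fold change of -2.52 and a standard error of 0.242 (limma, adjusted p = 0.000121). Ctrl replicate 3 was lowest of its group, and all NE libraries were far below it. The receptor kinase EPHA2, the transcription factor MYC and the cyclin CCND1 had log2 fold changes of -1.50, -1.36 and -1.30. The 2 other called genes, named after their values were seen, were ETV4 at -1.29 and FOS at 1.16. After the GC correction FOSL1 (-1.94), MYC (-1.09) and FOS (1.53) stayed past the threshold, and EPHA2, CCND1 and ETV4 were at -0.90, -0.99 and -0.69. The list median was -0.06.

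Of 13 tested inhibitors of the RAS-ERK pathway outside the DUSP family, 1 was upregulated, SPRY3, from 30.4 ± 15.1 (SD, n = 3) to 79.6 ± 8.90 (SD, n = 3) normalized counts, a log2 fold change of 1.46, and 0.96 after the GC correction. With the adjusted p alone 5 were higher and 5 lower, beside 24.6% and 25.5% of all tested genes. No test compared the list with the DUSP genes.

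Among 11 tested genes of the dual-specificity phosphatase family outside the 10, 1 was downregulated. This was DUSP23, from 364.8 ± 55.1 (SD, n = 3) to 130.7 ± 27.7 (SD, n = 3) normalized counts, with a log2 fold change of -1.49, and -0.82 after the GC correction. With the adjusted p alone, 2 were higher, DUSP19 and STYX, and 3 lower, DUSP22, DUSP23 and STYXL1. Of 6 tested phosphatases of other classes that act on MAP kinases, 0 were called by limma, and 2 were higher with the adjusted p alone. The medians of these lists were -0.37 and 0.32, and -0.28 and -0.23 after the GC correction.

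**Figure D5:**
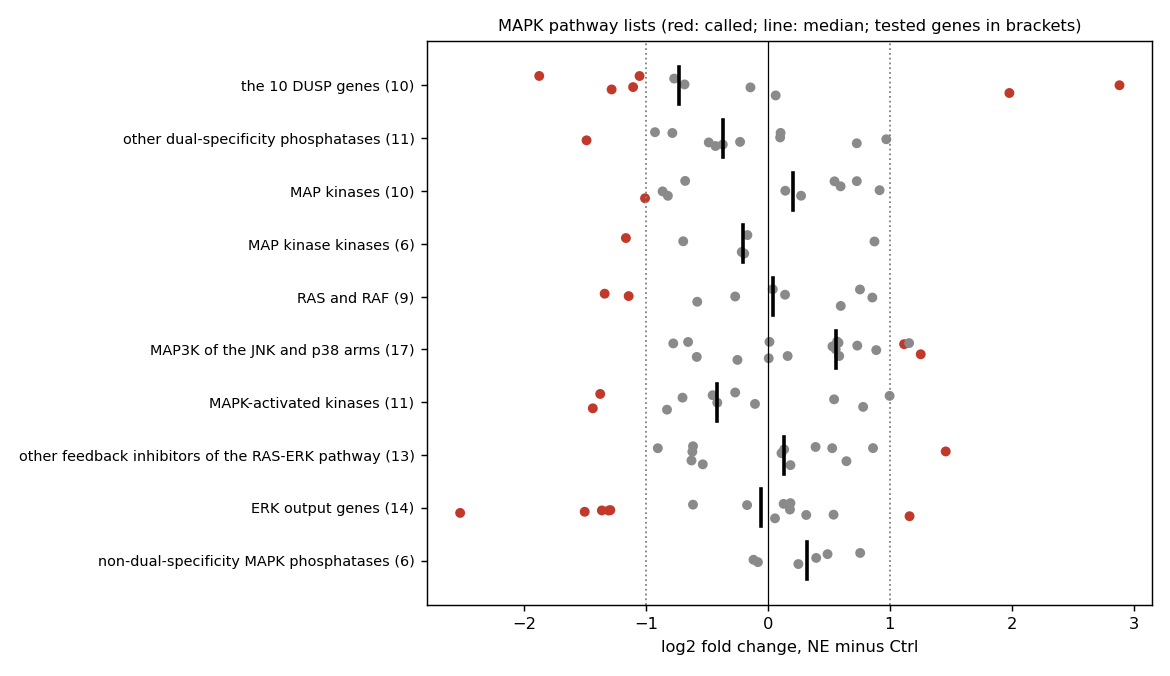
Log2 fold change (horizontal axis, NE minus Ctrl) of each tested gene in the 10 DUSP genes and in 9 lists of the MAPK pathway, with called genes in red and the list median as a black line. The DUSP genes and the ERK output genes have called genes in both directions, and the MAP kinases have 1 called gene.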

How the data were processed

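RNA from 3 Ctrl and 3 NE libraries of NCI-H1299 cells was sequenced. Per the submitters' processing notes and the paper's methods, the authors aligned reads to hg38 with HISAT2 2.0.5 and counted them per gene with featureCounts 1.5.0-p3; the annotation is not given in the sources used here. The methods describe length-scaled values. The signal the authors deposited is instead normalized counts, in which all genes of a library share the same divisor, a size factor of 0.955 to 1.09. Columns were matched to samples by group letter and replicate number.

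limma 3.58.1 (R 4.3.3, lmFit and eBayes with trend) was run on log2(value + 1) for 15013 genes, those whose mean over the 6 libraries reached 10. Exon lengths, GC content and positions came from GENCODE v44, where 25813 of 26025 genes matched. For the GC correction, the fitted trend with GC content (natural spline, 5 degrees of freedom) was subtracted in each library. Fits were tested on simulated data. Single values had an exact permutation test. Intervals cover the spread between libraries, and reads carry no molecular identifiers.

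The members and lists were chosen with earlier results of these data known. All 10 members were named, with the called genes of each list (at most 4, by size of change) and the 5 genes most correlated with the member of largest change. Alternatives were other pseudocounts, filters, scalings, eBayes without trend, voom, edgeR 4.0.16, DESeq2 1.42.0, no fold criterion, a replicate block, each library left out and the GC correction. Strand use in counting is not given in the sources used here. 1 marker of the cell line is not reported here.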

Additional observations from a re-analysis of the deposited data

How the results depend on the processing

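DUSP1, DUSP2, DUSP4 and DUSP6 were called in every alternative fit that tested them (19, 18 for DUSP2). DUSP5 was short of the fold criterion with quantile normalization (-0.96), without Ctrl replicate 3 (-0.95) and with the GC correction, alone or with the block (-0.60), and DUSP7 with the GC correction, alone or with the block (-0.53). Signs turned for DUSP10 without Ctrl replicate 2, for DUSP16 with the GC correction, with and without the block (-0.0147), and for the DUSP8 to DUSP10 ratio with the GC correction (0.2876). The causes were not tested.

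With the GC correction 549 genes rose and 346 fell, the members called down were 2 in place of 4, the ERK output genes called were 3 in place of 6, and 0 were called among other dual-specificity phosphatases, MAP kinase kinases, RAS and RAF genes, JNK and p38 MAP3K genes, MAPK-activated kinases and other feedback inhibitors. The GC correction with the replicate block gave 474 and 316 genes, 2 members down, 3 ERK output genes and 0 for the same lists. With no fold criterion 3693 genes were higher and 3828 lower. Of all tested genes 50.1% then passed. The lists had 5 of 11 tested other dual-specificity phosphatases, 7 of 10 MAP kinases and 3 of 6 MAP kinase kinases. They had 6 of 9 RAS and RAF genes, 12 of 17 MAP3K genes and 7 of 11 MAPK-activated kinases. Passing were also 10 of 13 feedback inhibitors and 2 of 6 other MAPK phosphatases. A pseudocount of 5 gave 0 MAP kinases. No filter gave 2 other dual-specificity phosphatases and 2 MAP kinase kinases, and quantile normalization 2 other dual-specificity phosphatases. The feedback inhibitors called were 2 by edgeR and 2 by DESeq2.

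Over the 6 fits that each leave out 1 library, the genes called ran from 815 to 1628 up and from 777 to 1507 down, the latter highest without Ctrl replicate 3. The members called were 2 up in all 6 fits and 3 to 4 down. The lists ran from 1 to 2 other dual-specificity phosphatases, 0 to 2 MAP kinases, 1 to 4 MAP3K genes and 1 to 3 feedback inhibitors. DUSP10 ran from -0.3402 to 0.0197, and the DUSP8 to DUSP10 ratio from -1.0993 to 0.1401, positive without Ctrl replicate 3.

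With the replicate block alone 1049 genes rose and 924 fell, and 2 members rose and 4 fell, as without it. Deviations of libraries with the same number correlated at -0.163, 0.0799 and -0.151, so the numbers give no sign of pairing. TMM and quantile scaling put the median of all genes at -0.0002 and -0.0112. Depth limits DUSP8, with 8.72 to 48.0 normalized counts.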

Other observations

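DUSP9, the classical family member outside the 10 genes, was under the minimum mean and was not tested. It had 9.42, 6.22 and 6.86 normalized counts in Ctrl libraries and 1.98, 0 and 1.83 in the NE libraries, without overlap. The kinase MAP2K6, which activates p38, was also under the minimum. It had 0, 3.11 and 1.96 normalized counts in Ctrl libraries and 20.8, 8.72 and 11.9 in the NE libraries. MAPK13, a p38 kinase, had a log2 fold change of 0.73, and with the GC correction it was 1.07 (adjusted p = 0.013 from limma).

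Of 10964 tested genes with a RefSeq promoter window, 386 held TGACGTCA in the 250 bases before a start. Upregulated were 9.59% of these, against 7.37% of all the genes with a window, and the median log2 fold change was 0.11. Of the 7039 genes without TGACG, 7.00% were upregulated, and their median log2 fold change was -0.02. Downregulated were 6.22% of the genes with TGACGTCA and 6.79% of those without TGACG. No test compared these shares.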
